A study of Mus musculus with 9 samples.

Results

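The comparison set 3 libraries of mouse spleen-derived monocytes given lipopolysaccharide (LPS) against 3 libraries of untreated monocytes, which are 6 of the 9 libraries of the series, and it took in all genes. The cells came from wild-type mice. Untreated cells received the solvent DMSO at a dilution of 1 in 1000 by the series text (1000, 1001 and 1002 in the labels of the single samples), and treated cells received 40 ng/ml LPS for 5 hours. The sample labels name DMSO only for the untreated cells, so an effect of LPS and one of the solvent cannot be told apart. The remaining 3 libraries, from cells given LPS and later octanal, also entered the fit. They bore on the gene filter, the scaling factors, the estimate of the spread and the stable calls defined below. Whether the replicates are separate mice or separate dishes is not in the labels, and p-values here reflect only the spread of these samples, which may be technical. Nor do the labels say how the monocytes were isolated from the spleen or how pure they were.

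LPS is a lipid of the outer membrane of Gram-negative bacteria. Monocytes bind it with Cd14 and pass it to the receptor Tlr4 with its partner Ly96 (MD-2), and the receptor signals through 2 adaptor routes. The Myd88 route leads to NF-kappaB and the MAP kinases and to cytokine and chemokine genes, and the Ticam1 (TRIF) route leads to Irf3, interferon beta and interferon-stimulated genes. Many of the induced genes encode inhibitors that later shut the response down.

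Total counts were 29594291 to 38388421 per library. Csf1r, the receptor for the monocyte growth factor, stood at 659, 268 and 279.5 CPM in the untreated libraries and 178, 254 and 262 CPM in the LPS libraries, in all 6 well above 0. Ly6c2, a defining marker of classical monocytes, had 168, 2.82 and 249 CPM in untreated replicates 1, 2 and 3 and 7.90, 0.564 and 0.387 CPM in LPS replicates 1, 2 and 3. It was near absent in untreated replicate 2 and in all LPS libraries, and its call (adjusted p = 0.025) was lost without untreated replicate 1 or 3 or LPS replicate 2 or 3, with adjusted p from 0.051 to 0.072. Its log2 fold change of -5.54 became -6.16 without untreated replicate 2, -4.85 without untreated replicate 3 and -8.23 without LPS replicate 1. Of 15 neutrophil markers, 13 were called lower, and their summed level was 14111 to 27676 CPM in untreated and 1940 to 2447 CPM in LPS libraries. Of the 13 classical monocyte markers, 10 were called lower and 1 higher (0 higher without LPS replicate 1), with sums of 8219 to 18426 CPM in untreated and 3106 to 4291 CPM in LPS libraries. All 11 tested T cell markers were called higher, with sums of 688 to 2116 CPM in untreated and 3331 to 4388 CPM in LPS libraries. No marker of these 3 lists was at 0 in either group. Over all genes tested 15.2% were called higher and 17.6% lower. In all 11 T cell markers the LPS libraries lay above the untreated ones, beside 26.7% of all genes. The T cell calls depended on which libraries were in the fit. There were 2 without untreated replicate 3, 1 without LPS replicate 1 and 3 each without LPS replicate 2 or 3. Without the first or second library of the octanal group 7 each were left. With only the 6 libraries of the comparison in the fit 3 were called, and 5 with the replicate number as a block. In RNA from a whole culture, fewer cells of a type and less RNA per cell cannot be told apart. The part of these cell type markers in the results that follow was not tested.

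**Figure D1:**
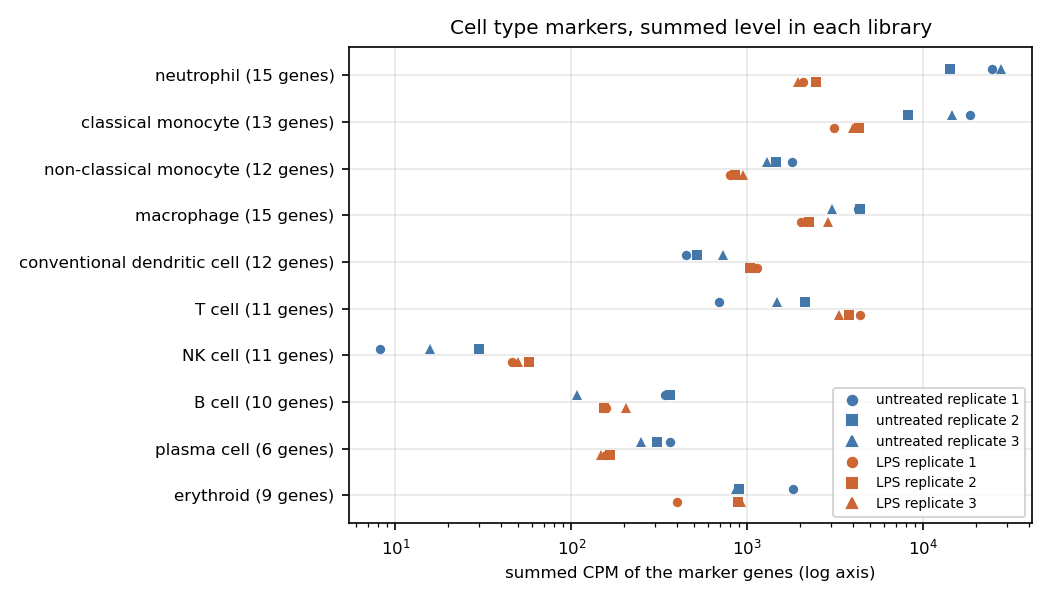
Summed CPM (log axis) of the marker genes of 10 cell types, 1 point per library, untreated in blue and LPS in orange with a symbol per replicate number. The neutrophil and classical monocyte sums of the 3 LPS libraries lie below those of all 3 untreated libraries and the T cell sums lie above, while the erythroid sums overlap.

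Of 15447 genes tested, 5072 (32.8%) passed an adjusted p of 0.05, 2353 (15.2%) higher and 2719 (17.6%) lower after LPS. On the deposited FPKM values the split was 3164 higher and 2119 lower. A stable call was defined as a call that also passed in each of the 9 fits that left out a library, with the same sign, a fold change that moved less than 1.5-fold, no overlap between the groups and at least 10 CPM in the higher group. There were 1772 stable calls (11.5%), 580 higher (3.75%) and 1192 lower (7.72%). Falls were the larger changes: 116 stable falls and 4 stable rises were at least 8-fold, and 43 stable falls and 0 stable rises at least 16-fold. Among all called genes, 295 falls and 47 rises were at least 8-fold, and 131 falls and 22 rises at least 16-fold. Genes with a stable fall took 25.8, 17.7 and 25.2% of the counts in untreated replicates 1, 2 and 3 and 6.87, 8.49 and 8.29% in the LPS replicates. The share of the 580 genes with a stable rise went from 4.84 ± 0.876% to 9.62 ± 0.947% (SD, n = 3). Nearly all stable calls were protein-coding genes, 558 of the rises and 1155 of the falls. Unless said otherwise, genes named below had a stable call, and adjusted p are from edgeR's quasi-likelihood test with Benjamini-Hochberg adjustment over all genes tested.

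**Figure D2:**
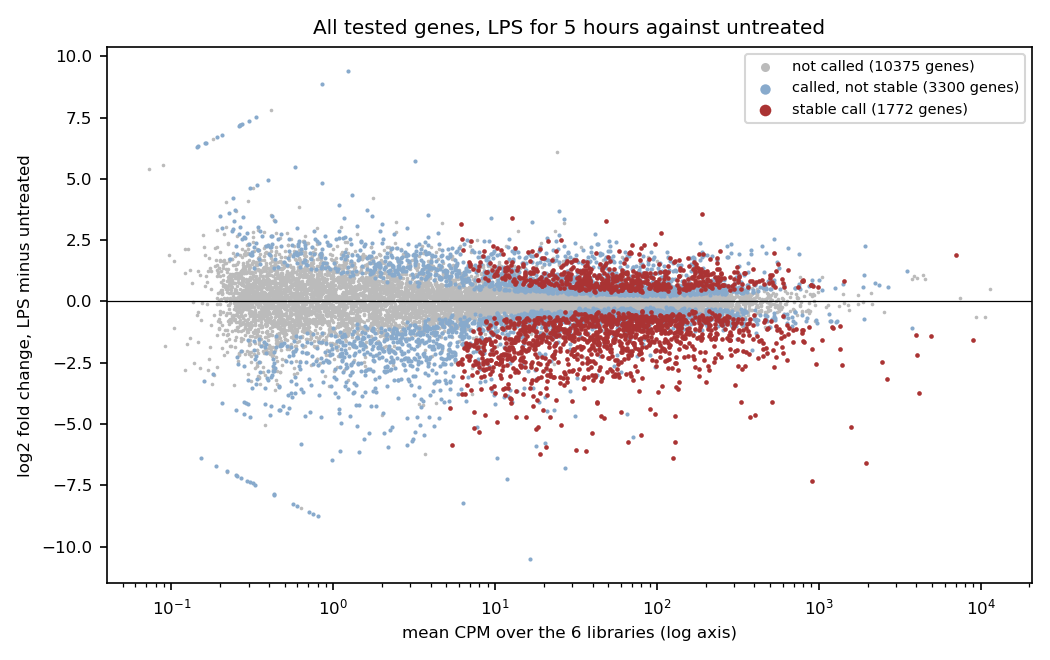
Log2 fold change of LPS minus untreated against the mean CPM of the 6 libraries (log axis), 1 point per tested gene, in grey where not called, blue where called and red where the call was stable. The red points reach further down (116 stable falls of 8-fold or more) than up (4 stable rises), and calls at the lowest levels are never stable because a stable call needed 10 CPM.

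Of 22 chemokine ligands tested (29 listed), 8 were called higher, 5 of them stably, and 1 lower, beside 15.2% and 17.6% of all genes. The median log2 fold change was 0.45 beside 0.01 over all genes tested. The rises were 3 of 6 CXC ligands that attract neutrophils, 2 of 3 ligands of Cxcr3 and 3 of 8 CC ligands. Cxcl2, a ligand of the neutrophil receptor Cxcr2, had 25.1, 32.6 and 32 CPM in untreated replicates 1, 2 and 3 and 304, 328 and 416 CPM in LPS replicates 1, 2 and 3. Each LPS library was far above the highest untreated one (log2 fold change 3.55 ± 0.22, adjusted p = 0.00041), and no other stable rise with a gene symbol was larger. Its neighbour Cxcl1 had 2.96, 1.64 and 1.98 CPM in the untreated libraries and 19.8, 19.4 and 30.3 CPM in the LPS libraries. It was low in all untreated libraries and its groups were well apart (log2 fold change 3.39 ± 0.27, adjusted p = 0.00046). Cxcl3, also a ligand of Cxcr2, had 37.5, 35.7 and 21.4 CPM in the untreated libraries and 72.9, 82.9 and 126 CPM in the LPS libraries. It started from a higher untreated level than Cxcl1 and rose less (log2 fold change 1.58 ± 0.27, adjusted p = 0.0043). The genes lie in a cluster on chromosome 5 of GRCm38, Cxcl3 at chr5:90786103-90789600, Cxcl1 at chr5:90891241-90893115 and Cxcl2 at chr5:90903871-90905938.

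The 170 bases before the start of these 3 genes are shown because all 3 hold an NF-kappaB motif, searched on both strands as GGG, any 2 bases, then TTTCC. The sequences are from RefSeq, assembly GRCm38.p6, all on the plus strand: Cxcl1 from chr5:90891075-90891244, Cxcl2 from chr5:90903729-90903898 and Cxcl3 from chr5:90785931-90786100. Capitals mark the motif matches.
Cxcl1: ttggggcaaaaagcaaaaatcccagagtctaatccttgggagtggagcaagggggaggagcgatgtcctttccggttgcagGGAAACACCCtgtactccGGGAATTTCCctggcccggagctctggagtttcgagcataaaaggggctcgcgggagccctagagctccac
Cxcl2: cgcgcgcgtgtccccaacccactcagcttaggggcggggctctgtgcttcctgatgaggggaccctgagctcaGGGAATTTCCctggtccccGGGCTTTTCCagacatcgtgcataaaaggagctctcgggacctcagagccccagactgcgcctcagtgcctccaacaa
Cxcl3: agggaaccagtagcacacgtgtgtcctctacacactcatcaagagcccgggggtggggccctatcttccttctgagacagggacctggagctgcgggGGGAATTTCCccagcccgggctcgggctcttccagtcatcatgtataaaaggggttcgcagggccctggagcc
Cxcl1 and Cxcl2 each held 2 matches, in Cxcl1 from 89 to 80 and from 71 to 62 bases before the start, and in Cxcl2 from 97 to 88 and from 78 to 69. Cxcl3 held 1, from 73 to 64 bases before the start. RefSeq windows of 250 bases before to 50 after a start were matched for 10535 of the 15442 symbols tested. In them the motif was found for 2.15% of genes, for 2.83% of the stable rises, for 2.24% of the stable falls and for 3 of the 5 chemokine rises with a window. A match is a run of letters and does not show that the factor binds there.

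Among the CC chemokines, Ccl5, which attracts T cells and monocytes, had 27.1, 32.8 and 20.1 CPM in the untreated libraries and 194, 164 and 202 CPM in the LPS libraries (log2 fold change 2.80 ± 0.33, adjusted p = 0.001). Ccl3 had 61.3, 90.3 and 168 CPM in the untreated libraries and 303, 370.2 and 424 CPM in the LPS libraries (log2 fold change 1.78 ± 0.37, adjusted p = 0.0092). For both the lowest LPS library lay above the highest untreated one. Ccl4, encoded next to Ccl3, moved with it, from 22.6, 44.0 and 61.6 to 109.8, 108 and 125 CPM (log2 fold change 1.42 ± 0.34, adjusted p = 0.016), but lost its call without LPS replicate 1 (adjusted p = 0.052) or LPS replicate 3 (0.056). Cxcl10, a ligand of Cxcr3 that interferon induces, went from 3.15, 6.12 and 1.38 to 29.4, 12.4 and 20.6 CPM (log2 fold change 2.55 ± 0.61, adjusted p = 0.015). Its call was lost without LPS replicate 1 (adjusted p = 0.051), and its log2 fold change became 3.16 without untreated replicate 2. Ccl6 was the only chemokine called lower, from 58.5, 38.8 and 37.6 to 3.47, 6.95 and 5.64 CPM (log2 fold change -3.07 ± 0.40, adjusted p = 0.0015), and there were 2 such calls without untreated replicate 2 or 3 or octanal replicate 1, 2 with a replicate block or with only the 6 libraries in the fit, and 4 by DESeq2. The monocyte attractant Ccl2 stood at 0.658 to 1.91 CPM over all 6 libraries (log2 fold change -0.69 ± 0.57, adjusted p = 0.38), and Ccl8, Ccl12 and Ccl20 had no count in any. Per gene length, Ccl3 was the most abundant chemokine of the LPS libraries at 468 ± 76.8 FPKM, followed by Ccl5 at 344 ± 41.2 and Cxcl2 at 274 ± 44.0 FPKM (SD, n = 3). Ccl4 at 169.7 ± 15.6, Cxcl3 at 90.7 ± 27.7 and Cxcl1 at 23.9 ± 6.5 FPKM came below them, and the intervals of Ccl5 and Cxcl2 overlapped.

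**Figure D3:**
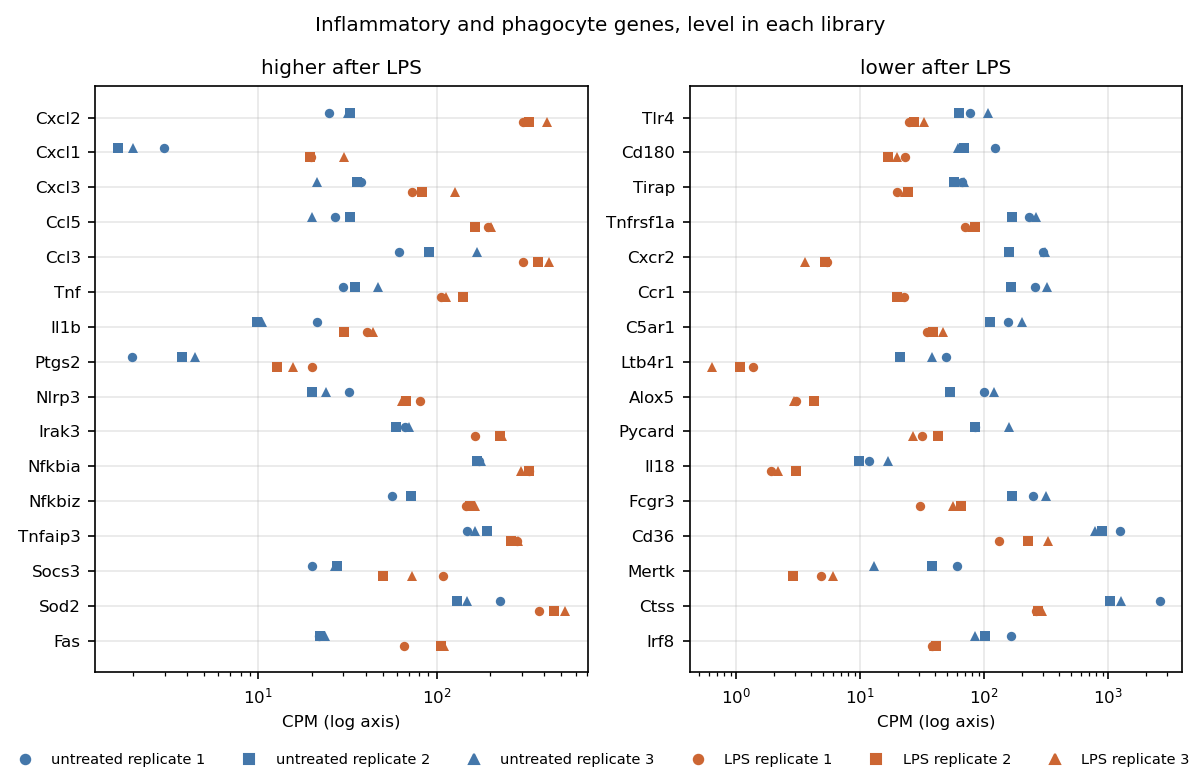
CPM (log axis) of 16 genes with a stable rise (left) and 16 with a stable fall (right), 1 point per library, untreated in blue and LPS in orange with a symbol per replicate number. The 3 LPS points lie on 1 side of the 3 untreated points for each gene shown, which the rule for a stable call required.

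Of 23 genes tested for LPS recognition and signalling, 4 were called higher and 8 lower, beside 15.2% and 17.6% of all genes. The falls included 4 of 6 receptors and 3 of 4 adaptors. Of 3 inhibitors, 2 were called higher and 1 lower. Over the list, the falls dropped to 5 without untreated replicate 1, LPS replicate 1 or LPS replicate 2. Tlr4 had 76.5, 62.4 and 107 CPM in untreated replicates 1, 2 and 3 and 24.7, 27.1 and 32.6 CPM in LPS replicates 1, 2 and 3. All LPS libraries were below the lowest untreated one (log2 fold change -1.54 ± 0.26, adjusted p = 0.004). Cd180, a relative of Tlr4 that modulates it, fell further, from 121, 69.0 and 61.6 to 23.1, 16.9 and 19.8 CPM (log2 fold change -2.08 ± 0.26, adjusted p = 0.0012). Of the adaptors, Tirap, which brings Myd88 to Tlr4, fell from 65.8, 56.7 and 68.6 to 19.8, 24.4 and 23.0 CPM (log2 fold change -1.51 ± 0.18, adjusted p = 0.0012). Ticam1 fell by less, from 42.1, 41.8 and 41.5 to 31.0, 27.2 and 29.5 CPM (log2 fold change -0.52 ± 0.11, adjusted p = 0.0086). Myd88 itself had 112, 93.7 and 117 CPM in the untreated libraries and 92.8, 93.7 and 94.6 CPM in the LPS libraries and was not called (log2 fold change -0.20 ± 0.13, adjusted p = 0.26), nor was the coreceptor Cd14 (log2 fold change 0.42 ± 0.22, adjusted p = 0.17), whose call was gained without untreated replicate 1 (adjusted p = 0.044). Irak3, a kinase-dead member of the IRAK family that dampens the Myd88 route, rose from 66.1, 58.9 and 69.7 to 164, 228 and 233 CPM (log2 fold change 1.68 ± 0.20, adjusted p = 0.001). Ikbke, the kinase of the Irf3 branch that NF-kappaB induces, rose from 69.4, 82.0 and 60.2 to 241, 253 and 228 CPM (log2 fold change 1.77 ± 0.18, adjusted p = 0.00077). Of the 10 kinases and ligases of the route, only Ikbke and Traf3 were called, Traf3 not stably.

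All calls in the NF-kappaB list were rises. Of 26 subunits, inhibitors and kinases tested, 15 were called higher and 0 lower, 9 of the rises stably (median log2 fold change 0.43, against 15.2% of all genes called higher and a median of 0.01). Without untreated replicate 2 there were 12 rises and 1 fall. Among the subunits, Nfkb2 rose from 134, 141 and 141 to 238, 238 and 257 CPM (log2 fold change 0.82 ± 0.08, adjusted p = 0.00066) and Relb from 67.6, 91.4 and 109.9 to 174, 191 and 182 CPM (log2 fold change 1.03 ± 0.17, adjusted p = 0.004). Both belong to the noncanonical arm of the pathway. Nfkb1, of the canonical arm, was not called (log2 fold change 0.30 ± 0.12, adjusted p = 0.073), although its LPS libraries all lay above the untreated ones, and it passed without untreated replicate 1 (adjusted p = 0.041) and on FPKM values (limma-trend adjusted p = 0.037). Nfkbia, the inhibitor that holds NF-kappaB in the cytoplasm and is resynthesised as its target, had 172, 169 and 178 CPM in untreated replicates 1, 2 and 3 and 329, 328 and 297 CPM in LPS replicates 1, 2 and 3. The replicates of each group lay within a narrow range and the groups were apart (log2 fold change 0.88 ± 0.12, adjusted p = 0.0018). The nuclear IkB proteins Nfkbiz (log2 fold change 1.21 ± 0.16, adjusted p = 0.0015) and Bcl3 (log2 fold change 0.72 ± 0.11, adjusted p = 0.0026) rose as well. Tnfaip3 (A20), which edits ubiquitin chains to stop the signal, rose from 148, 191 and 164 to 282, 262 and 286 CPM (log2 fold change 0.72 ± 0.11, adjusted p = 0.0025). Its partner Tnip1 went from 102, 141 and 143 to 260.2, 289 and 256 CPM (log2 fold change 1.06 ± 0.16, adjusted p = 0.0025). Traf1 (log2 fold change 1.20 ± 0.27, adjusted p = 0.012) and Birc3 (log2 fold change 0.65 ± 0.09, adjusted p = 0.0016), adaptor and ubiquitin ligase of the TNF receptors, rose too.

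The promoter of Nfkbia is shown as the best known feedback gene of the list, with Gbp3 and Gbp5, interferon-inducible GTPases described further on. The 170 bases before each start are from RefSeq, assembly GRCm38.p6: Nfkbia from chr12:55492648-55492817 on the minus strand, Gbp3 from chr3:142559874-142560043 (a second RefSeq start of Gbp3 had no match) and Gbp5 from chr3:142496764-142496933, both on the plus strand. Capitals mark the NF-kappaB motif in Nfkbia (29 to 20 bases before the start) and Gbp5 (77 to 68 bases before it) and the interferon-stimulated response element, searched on both strands as GAAA, any 2 bases, then GAAA, in Gbp3 (2 overlapping matches, 45 to 36 and 39 to 30 bases before it) and Gbp5 (165 to 156 bases before it).
Nfkbia: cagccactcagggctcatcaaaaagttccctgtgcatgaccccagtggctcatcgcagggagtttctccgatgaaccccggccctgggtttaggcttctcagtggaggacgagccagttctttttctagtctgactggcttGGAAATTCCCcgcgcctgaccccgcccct
Gbp3: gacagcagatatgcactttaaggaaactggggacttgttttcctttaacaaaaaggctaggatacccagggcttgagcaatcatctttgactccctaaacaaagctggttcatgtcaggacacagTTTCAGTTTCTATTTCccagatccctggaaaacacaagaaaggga
Gbp5: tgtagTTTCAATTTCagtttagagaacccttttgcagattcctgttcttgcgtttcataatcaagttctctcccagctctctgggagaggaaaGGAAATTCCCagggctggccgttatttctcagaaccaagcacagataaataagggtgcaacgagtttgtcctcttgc
The NF-kappaB motif was in 4 of the 12 called NF-kappaB list genes with a window. The response element was in 7 of the 8 called GTPases and 4 of the 9 called interferon effectors with a window, beside 3.89% of all genes with a window. It was found for 4.58% of the stable rises and 3.53% of the stable falls. The AP-1 motif TGANTCA (both strands) was found for 6.6% of all genes with a window, 6.1% of the stable rises and 9.62% of the stable falls.

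Factors that destroy cytokine mRNA were represented by Zc3h12c, an RNase of the Regnase family, which rose from 63.4, 57.7 and 65.9 to 146, 218 and 221 CPM (log2 fold change 1.64 ± 0.25, adjusted p = 0.0025). It was the only stable call among the 11 genes of mRNA decay. Of these, 5 were called higher and 0 lower, beside 15.2% and 17.6% of all genes. Without LPS replicate 1 there was 1 such call, without LPS replicate 2 or 3 there were 2 each, and without untreated replicate 1 there were 3 and 1 lower. DESeq2 called 6 higher and 1 lower. Arid5a, which protects Il6 mRNA, went from 34.6, 53.6 and 48.9 to 106, 82.0 and 91.2 CPM (log2 fold change 1.03 ± 0.24, adjusted p = 0.014) and lost its call without LPS replicate 1 (adjusted p = 0.053).

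Of 26 cytokines tested, 8 were called higher and 5 lower, beside 15.2% and 17.6% of all genes, and 3 lower without LPS replicate 1. Tnf had 29.9, 34.8 and 47.2 CPM in untreated replicates 1, 2 and 3 and 106, 141 and 113 CPM in LPS replicates 1, 2 and 3. It was higher in all LPS libraries than in any untreated one (log2 fold change 1.69 ± 0.26, adjusted p = 0.0025). Il1b rose from 21.2, 9.85 and 10.5 to 40.5, 30.5 and 44.2 CPM (log2 fold change 1.47 ± 0.30, adjusted p = 0.0087), with untreated replicate 1 closest to the LPS libraries. Ltb, lymphotoxin beta, rose from 50.7, 134 and 105 to 283, 281 and 198 CPM (log2 fold change 1.40 ± 0.31, adjusted p = 0.012), and is also made by T cells, whose markers were higher in the same libraries. Il10, the cytokine that limits the response, had 0.619, 3.31 and 1.03 CPM in the untreated libraries and 21.6, 14.7 and 15.1 CPM in the LPS libraries. It was near 0 before LPS and its groups were far apart (log2 fold change 3.38 ± 0.52, adjusted p = 0.0027). The log2 fold change of Il10 was 4.36 without untreated replicate 2, a move of more than 1.5-fold, so its call was not stable. Csf3, the neutrophil growth factor, had counts in 1 untreated library only, with 0, 0.360 and 0 CPM against 6.35, 4.89 and 7.69 CPM in the LPS libraries (adjusted p = 0.003). Il6 was low throughout, at 0.699, 1.34 and 1.63 and 4.96, 3.13 and 5.15 CPM (log2 fold change 1.86 ± 0.43, adjusted p = 0.013), and neither Csf3 nor Il6 reached the 10 CPM that a stable call needed. Ifnb1, the interferon of the Ticam1 route, had 5 counts in all untreated and 8 in all LPS libraries and was too low to test.

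The falls among the cytokines included antagonists and constitutive members. Il1rn, the receptor antagonist of interleukin 1, fell from 194, 194 and 271 to 122, 111 and 119 CPM (log2 fold change -0.90 ± 0.13, adjusted p = 0.0024). Il18, an interleukin 1 relative stored as a precursor, fell from 11.7, 9.72 and 16.6 to 1.90, 3.01 and 2.16 CPM (log2 fold change -2.43 ± 0.34, adjusted p = 0.0019). Inhba, the activin A subunit, fell from 134, 106 and 156 to 76.5, 48.3 and 41.5 CPM (log2 fold change -1.25 ± 0.28, adjusted p = 0.012). On the receptor side, Il18rap had 108, 71.6 and 116 CPM in the untreated libraries and 9.52, 16.3 and 10.1 CPM in the LPS libraries. All LPS libraries were lower by several fold (log2 fold change -3.04 ± 0.30, adjusted p = 0.00066). Il1r2, the decoy receptor for interleukin 1, went from 17.6, 58.1 and 19.7 to 2.86, 2.51 and 2.77 CPM (log2 fold change -3.55 ± 0.51, adjusted p = 0.0022), with untreated replicate 2 far above the others and a log2 fold change of -2.82 without it. That move was more than 1.5-fold, so the call of Il1r2 was not stable.

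The TNF receptor family split, with 9 of 22 called higher and 4 lower, beside 15.2% and 17.6% of all genes. Without LPS replicate 2 the rises were 5, and without LPS replicate 3 they were 4. Tnfrsf1a, the death-domain receptor for TNF, fell from 231, 167 and 262 to 69.4, 84.5 and 79.4 CPM (log2 fold change -1.50 ± 0.20, adjusted p = 0.0015). Tnfrsf1b, the second TNF receptor, went the other way, from 853, 586 and 612 to 928, 1151 and 1057 CPM (log2 fold change 0.61 ± 0.19, adjusted p = 0.034). Its call was not stable: it was lost in 7 of the 9 fits that left out a library (adjusted p from 0.058 to 0.15), all except those without untreated replicate 1 or octanal replicate 1. Fas, the death receptor for Fas ligand, had 22.0, 22.1 and 23.7 CPM in the untreated libraries and 65.6, 106 and 110.2 CPM in the LPS libraries. The untreated libraries were almost equal and LPS replicate 1 was the lowest of its group (log2 fold change 2.06 ± 0.20, adjusted p = 0.00066). Ltbr, the receptor for lymphotoxin, fell (log2 fold change -1.07 ± 0.20, adjusted p = 0.0065), as did Tnfrsf21, death receptor 6 (log2 fold change -1.69 ± 0.24, adjusted p = 0.0021), and the necroptosis kinase Ripk3 (log2 fold change -1.02 ± 0.25, adjusted p = 0.016). Tnfrsf18 (log2 fold change 1.20 ± 0.28, adjusted p = 0.013) and Traf5 (log2 fold change 1.20 ± 0.25, adjusted p = 0.009), both also expressed by T cells, rose.

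Of 20 receptors for chemoattractants tested, 9 were called lower and 3 higher, beside 17.6% and 15.2% of all genes (median log2 fold change -0.98). Without LPS replicate 1 there was 1 higher. Cxcr2, the receptor of Cxcl1, Cxcl2 and Cxcl3 and a neutrophil marker, had 299, 159 and 307 CPM in untreated replicates 1, 2 and 3 and 5.40, 5.17 and 3.60 CPM in LPS replicates 1, 2 and 3. The LPS libraries held a few CPM each (log2 fold change -5.75 ± 0.68, adjusted p = 0.001). Ccr1, a receptor of Ccl3 and Ccl5, fell from 255, 166 and 320.0 to 22.5, 19.6 and 20.5 CPM (log2 fold change -3.57 ± 0.36, adjusted p = 0.00069). C5ar1, the receptor of the complement peptide C5a, fell from 155, 112 and 202 to 34.7, 38.8 and 46.5 CPM (log2 fold change -1.96 ± 0.25, adjusted p = 0.0014). Ltb4r1, the receptor of leukotriene B4, had 49.2, 20.9 and 37.7 CPM in the untreated libraries and 1.36, 1.06 and 0.636 CPM in the LPS libraries. The fall was among the deepest of the list (log2 fold change -5.13 ± 0.59, adjusted p = 0.001). Ptafr, the receptor of platelet-activating factor, fell by about 2-fold (log2 fold change -0.99 ± 0.17, adjusted p = 0.0046). Fpr1, the receptor of bacterial formyl peptides, had 118, 72.4 and 99.1 CPM in the untreated libraries and 372, 357 and 461 CPM in the LPS libraries. It was the only stable rise of the list (log2 fold change 2.04 ± 0.21, adjusted p = 0.00068). Ccr7, which guides dendritic cells and T cells to lymph nodes, went from 194, 325 and 424 to 866, 757 and 834 CPM (log2 fold change 1.38 ± 0.34, adjusted p = 0.016) but lost its call without LPS replicate 1 (adjusted p = 0.055). Neutrophil marker sums fell over the same libraries, as given above, and their part in these falls was not tested.

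**Figure D4:**
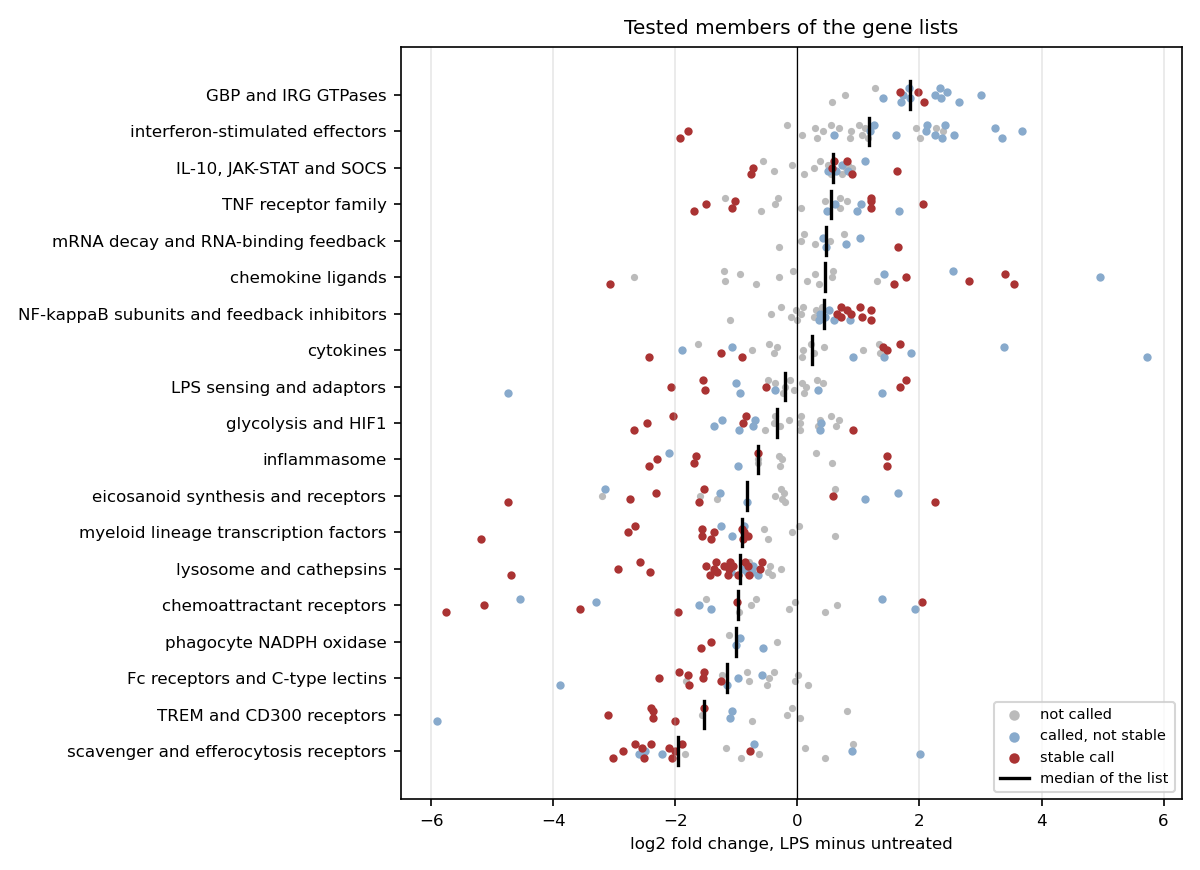
Log2 fold change of LPS minus untreated for the tested members of 19 gene lists, 1 point per gene, grey where not called, blue where called and red where the call was stable, with the median of each list as a black bar. The medians run from 1.84 for the GBP and IRG GTPases to -1.95 for the scavenger and efferocytosis receptors, beside 0.01 over all genes tested.

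Of 24 genes of cytokine receptor signalling, 10 were called higher and 2 lower, beside 15.2% and 17.6% of all genes. There were 5 higher without LPS replicate 1 and 6 without LPS replicate 3, and 12 higher and 4 lower without untreated replicate 2 and by DESeq2. With the replicate number as a block, 9 were higher and 4 lower. Socs3, the inhibitor that cytokine receptors of the interleukin 6 type induce, had 20.1, 27.6 and 26.9 CPM in the untreated libraries and 109, 50.01 and 72.6 CPM in the LPS libraries. LPS replicate 1 was the highest and the groups did not overlap (log2 fold change 1.63 ± 0.33, adjusted p = 0.008). Of the Janus kinases, Jak3 (log2 fold change 0.89 ± 0.18, adjusted p = 0.0073) and Tyk2 (log2 fold change 0.56 ± 0.11, adjusted p = 0.0061) rose. Stat5b also rose (log2 fold change 0.81 ± 0.17, adjusted p = 0.0099), while Stat3 (log2 fold change 0.10 ± 0.19, adjusted p = 0.7) was not called and overlapped between the groups. The interferon receptor chains Ifnar2 (log2 fold change -0.76 ± 0.16, adjusted p = 0.0092) and Ifngr2 (log2 fold change -0.73 ± 0.15, adjusted p = 0.0093) fell.

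Of 17 GTPases of the GBP and IRG families, which attack the vacuoles of intracellular pathogens, 14 were called higher and 0 lower (median log2 fold change 1.84). Over all genes 15.2% were called higher and 17.6% lower. In 14 of the 17 the LPS libraries all lay above the untreated ones, beside 26.7% of all genes. Only 3 of the calls were stable, and 9 were left without untreated replicate 1, 5 without LPS replicate 1 and 9 without LPS replicate 3. Gbp3 had 8.71, 10.2 and 8.32 CPM in untreated replicates 1, 2 and 3 and 59.0, 27.9 and 27.6 CPM in LPS replicates 1, 2 and 3. LPS replicate 1 was above the other LPS libraries, and all 3 were above the untreated ones (log2 fold change 2.07 ± 0.40, adjusted p = 0.007). Gbp5 had 12.1, 15.2 and 17.9 CPM in the untreated libraries and 66.1, 37.0 and 42.2 CPM in the LPS libraries (log2 fold change 1.69 ± 0.38, adjusted p = 0.012). Gbp9 had 9.41, 23.8 and 17.4 CPM in the untreated libraries and 96.3, 46.9 and 56.7 CPM in the LPS libraries (log2 fold change 1.98 ± 0.41, adjusted p = 0.0089). In these GTPases too LPS replicate 1 was highest, as in all 14 of the 14 called. Summed over the 17 genes, the level was 149.6, 279 and 274 CPM in untreated replicates 1, 2 and 3 and 1217, 508 and 641 CPM in the LPS replicates.

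The antiviral effectors showed the same order. Of 32 tested, 13 were called higher, 0 of them stably, and 2 lower, both stably, beside 15.2% and 17.6% of all genes called. The rises numbered 4 without untreated replicate 1, 3 without untreated replicate 3 and 3 without LPS replicate 1. LPS replicate 1 was highest in 13 of the 13 and LPS replicate 2 lowest in 13. Rsad2 (viperin), which blocks viral replication, had 8.47, 37.8 and 6.38 CPM in the untreated libraries and 162, 59.9 and 60.1 CPM in the LPS libraries (log2 fold change 2.42 ± 0.69, adjusted p = 0.027). Untreated replicate 2 was closer to the lower LPS libraries than the other untreated ones were. The call was lost without untreated replicate 1 (adjusted p = 0.08), untreated replicate 3 (0.066) or LPS replicate 1 (0.097), and the log2 fold change was 3.63 without untreated replicate 2 and 1.77 without LPS replicate 1. Ifit2 went from 11.1, 29.1 and 13 to 143, 53.4 and 56.7 CPM (log2 fold change 2.25 ± 0.53, adjusted p = 0.014), and its log2 fold change was 1.62 without LPS replicate 1. Outside this list, the interferon-inducible Ifi203 had a stable rise from 15.6, 37.0 and 18.0 to 165, 91.5 and 92.7 CPM (log2 fold change 2.31 ± 0.52, adjusted p = 0.012), as did Oas1b, from 2.80, 5.14 and 4.5 to 28.0, 10.6 and 14.2 CPM (log2 fold change 2.09 ± 0.47, adjusted p = 0.012). Both stable falls of the list concern endosomes: Ifitm3, which blocks viral entry, fell from 77.1, 41.1 and 66.1 to 24.4, 11.1 and 13.2 CPM (log2 fold change -1.92 ± 0.37, adjusted p = 0.0068). Tlr7, the sensor of single-stranded RNA, fell from 192, 95.8 and 129 to 42.2, 36.3 and 41.9 CPM (log2 fold change -1.79 ± 0.22, adjusted p = 0.0012).

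**Figure D5:**
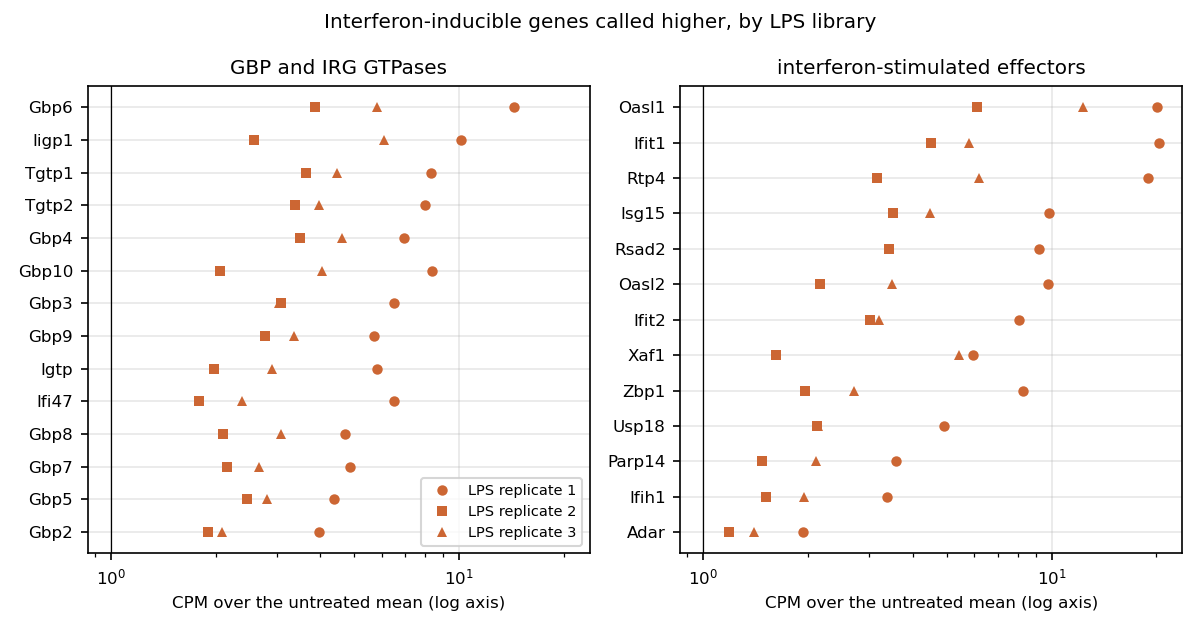
CPM of each LPS library over the mean of the untreated libraries (log axis) for the 14 GBP and IRG GTPases (left) and 13 interferon-stimulated effectors (right) that were called higher, with a symbol per LPS library. LPS replicate 1 is the rightmost point in all 14 and all 13 rows.

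Of 9 interferon regulatory factors, 5 were called higher and 2 lower, beside 15.2% and 17.6% of all genes. The rises fell to 1 without untreated replicate 1 or LPS replicate 1, to 2 without LPS replicate 3 and to 3 without untreated replicate 3 or LPS replicate 2. Irf8, a factor that monocytes and dendritic cells need to develop, fell from 166, 101 and 84.4 to 38.2, 41.0 and 39.3 CPM (log2 fold change -1.57 ± 0.22, adjusted p = 0.0021), the only stable call. Irf7, the amplifier of interferon production, had 12.4, 25.7 and 8.0 CPM in the untreated libraries and 107, 29.5 and 51.2 CPM in the LPS libraries (log2 fold change 2.03 ± 0.64, adjusted p = 0.039), with LPS replicate 2 close to untreated replicate 2. Its call was lost without untreated replicate 1 or 3 or LPS replicate 1 or 3, with adjusted p from 0.067 to 0.14, and its log2 fold change was 1.38 without LPS replicate 1.

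At 5 hours some immediate-early transcription factors were below the untreated level. Of 27 tested, 6 were called lower and 2 higher, beside 17.6% and 15.2% of all genes, and 1 higher without untreated replicate 1, any 1 LPS library, or octanal replicate 2 or 3. Fos, a subunit of AP-1, had 68.6, 57.2 and 83.2 CPM in the untreated libraries and 14.0, 21.3 and 19.3 CPM in the LPS libraries. All LPS libraries were lower (log2 fold change -1.94 ± 0.29, adjusted p = 0.0024). Egr2 fell from 47.6, 35.3 and 25.0 to 6.20, 5.17 and 5.23 CPM (log2 fold change -2.70 ± 0.26, adjusted p = 0.00063) and Egr3 from 28.9, 19.8 and 5.17 to 3.42, 1.75 and 4.01 CPM (log2 fold change -2.55 ± 0.58, adjusted p = 0.012), with a wide spread among the untreated libraries. Atf3, a repressor of cytokine genes, fell as well (log2 fold change -1.06 ± 0.16, adjusted p = 0.0026), as did Fosl2 (log2 fold change -0.79 ± 0.15, adjusted p = 0.0054). Klf2, a quiescence factor of monocytes and T cells, rose from 57.6, 178 and 123 to 423, 347 and 286 CPM (log2 fold change 1.56 ± 0.35, adjusted p = 0.012). Nr4a1, an orphan nuclear receptor named in the title of the series, had 27.4, 41.9 and 14.8 CPM in untreated replicates 1, 2 and 3 and 29.9, 36.2 and 26.8 CPM in LPS replicates 1, 2 and 3. The groups overlapped (log2 fold change 0.15 ± 0.34, adjusted p = 0.77). Dnm1l, which encodes the mitochondrial fission GTPase Drp1, also of the title, had 81.3, 77.1 and 83.7 CPM in the untreated libraries and 99.9, 86.2 and 89.9 CPM in the LPS libraries. Its LPS libraries lay above the untreated ones by a small margin, and it was not called (log2 fold change 0.19 ± 0.13, adjusted p = 0.29). Of 11 MAP kinase phosphatases, 2 were called higher and 2 lower, beside 15.2% and 17.6% of all genes. Their median log2 fold change was 0.225, and the rises were 0 without any 1 LPS library. Dusp4, the only stable call of the list, fell from 36.9, 35.1 and 31.5 to 12.6, 13.1 and 13.5 CPM (log2 fold change -1.40 ± 0.13, adjusted p = 0.00063).

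Eicosanoids are made as prostaglandins by way of cyclooxygenase or as leukotrienes by way of 5-lipoxygenase. Of 8 genes of prostaglandin synthesis, 3 were called higher and 3 lower, and of 6 genes for leukotrienes and lipoxins, 3 were called lower. Of all 21 genes tested, 4 were called higher and 8 lower, beside 15.2% and 17.6% of all genes, and 2 and 5 without LPS replicate 1. Ptgs2, the inducible cyclooxygenase, had 1.96, 3.73 and 4.43 CPM in untreated replicates 1, 2 and 3 and 20.0, 12.7 and 15.6 CPM in LPS replicates 1, 2 and 3. All LPS libraries were above the untreated ones (log2 fold change 2.26 ± 0.30, adjusted p = 0.0016). Ptgs1, its constitutive relative, fell from 72.9, 45.0 and 76.7 to 9.60, 12.4 and 7.17 CPM (log2 fold change -2.74 ± 0.37, adjusted p = 0.0017). Alox5, 5-lipoxygenase, had 100.1, 53.0 and 121 CPM in the untreated libraries and 3.04, 4.23 and 2.93 CPM in the LPS libraries. The LPS libraries held a small part of the lowest untreated level (log2 fold change -4.75 ± 0.58, adjusted p = 0.0012). Its activating protein Alox5ap (log2 fold change -2.31 ± 0.27, adjusted p = 0.0011) and Lta4h (log2 fold change -1.61 ± 0.21, adjusted p = 0.0014), the enzyme that makes leukotriene B4, fell too. The prostacyclin receptor Ptgir fell (log2 fold change -1.53 ± 0.30, adjusted p = 0.0068). Alox5 and Alox5ap are also abundant in neutrophils, and the part of neutrophil RNA in these falls was not tested.

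Of 16 inflammasome genes tested, 2, Nlrp3 and Il1b, were called higher and 7 lower, all but 2 of these stably. Over all genes the shares were 15.2% higher and 17.6% lower. The sensor Nlrp3 rose from 32.4, 19.9 and 24.0 to 80.4, 67.5 and 64.1 CPM (log2 fold change 1.47 ± 0.22, adjusted p = 0.0024). Pycard (ASC), the adaptor between sensor and caspase 1, had 84.4, 84.8 and 157 CPM in the untreated libraries and 31.4, 42.7 and 26.6 CPM in the LPS libraries. It was highest in untreated replicate 3, and its groups did not overlap (log2 fold change -1.70 ± 0.29, adjusted p = 0.0041). P2rx7, the ATP receptor that triggers Nlrp3, fell from 74.3, 61.7 and 48.3 to 12.2, 13.1 and 12.2 CPM (log2 fold change -2.30 ± 0.17, adjusted p = 0.00041). Gsdmd, which forms the membrane pore, fell by less (log2 fold change -0.64 ± 0.12, adjusted p = 0.0069). Naip5, the sensor of flagellin, fell (log2 fold change -1.65 ± 0.20, adjusted p = 0.0012). Of 11 other Toll-like receptor genes, 6 were called lower and 1 higher (4 and 0 without LPS replicate 1, and 6 and 0 without LPS replicate 2 or 3), and the stable falls were all endosomal: Tlr7 given above, Tlr13 (log2 fold change -1.49 ± 0.17, adjusted p = 0.00099), a sensor of bacterial ribosomal RNA, and Unc93b1 (log2 fold change -0.98 ± 0.19, adjusted p = 0.0068), which carries these receptors to the endosome.

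Most lysosomal genes were lower. Of 32 lysosomal genes tested, 27 were called lower and 0 higher, 20 stably, with a median log2 fold change of -0.94. Over all genes 17.6% were called lower and 15.2% higher. In 30 of the 32 the LPS libraries all lay below the untreated ones, beside 24.8% of all genes. No alternative fit moved the count of falls by more than 1.5-fold. Among the cathepsins, the proteases of this compartment, 10 of 11 were called lower. Ctsd had 8493, 5124 and 7991 CPM in untreated replicates 1, 2 and 3 and 1799, 3037 and 3209 CPM in LPS replicates 1, 2 and 3. LPS replicate 1 was lowest and all LPS libraries lay below untreated replicate 2, the lowest untreated library (log2 fold change -1.43 ± 0.31, adjusted p = 0.011). Ctsb fell from 7229, 4436 and 5507 to 1589, 2449 and 2634 CPM (log2 fold change -1.36 ± 0.28, adjusted p = 0.0083). Ctss, which trims the invariant chain for MHC class II, fell from 2599, 1036 and 1272 to 264, 269 and 293 CPM (log2 fold change -2.57 ± 0.33, adjusted p = 0.0014), and Ctsl (log2 fold change -2.41 ± 0.31, adjusted p = 0.0014) and Ctsk (log2 fold change -2.94 ± 0.19, adjusted p = 0.00041) fell as well. All 8 membrane and pump genes were called lower. Atp6v0d2, a subunit of the proton pump in macrophages and osteoclasts, had 127, 51.5 and 81.1 CPM in the untreated libraries and 2.96, 3.98 and 3.10 CPM in the LPS libraries. The deepest fall of the list was here (log2 fold change -4.69 ± 0.34, adjusted p = 0.00041). Mitf, a transcription factor of lysosomal genes, fell from 99.1, 79.7 and 88.5 to 27.6, 40.8 and 37.9 CPM (log2 fold change -1.33 ± 0.16, adjusted p = 0.0012). Psap, the precursor of the saposins that help hydrolases digest lipids, lost more CPM than any other called gene, from 14748, 9562 and 15993 to 2984, 5269 and 5437 CPM (log2 fold change -1.56 ± 0.34, adjusted p = 0.011).

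Of 21 Fc receptors, C-type lectins and their signalling partners, with which phagocytes recognise particles, 11 were called lower (4 of 6 Fc receptors, 4 of 12 lectins and all 3 partners) and 0 higher (median log2 fold change -1.15). Over all genes 17.6% were called lower and 15.2% higher. Fcgr3, an activating receptor for immune complexes, had 246, 167 and 317 CPM in the untreated libraries and 30.2, 64.9 and 55.8 CPM in the LPS libraries. All LPS libraries were far below the untreated ones (log2 fold change -2.27 ± 0.33, adjusted p = 0.0022). Fcgr2b, the inhibitory receptor, fell too (log2 fold change -1.94 ± 0.33, adjusted p = 0.0043). Clec7a (dectin-1), the receptor for fungal beta-glucan, fell from 83.1, 84.2 and 169.9 to 23.1, 34.3 and 40.8 CPM (log2 fold change -1.78 ± 0.31, adjusted p = 0.0044), and so did Card9, the adaptor that it signals through (log2 fold change -1.79 ± 0.24, adjusted p = 0.0016). Of 15 genes of the TREM and CD300 families, 9 were called lower and 0 higher, beside 17.6% and 15.2% of all genes. Trem1, an amplifier of inflammatory signals, fell from 47.7, 35.3 and 57.8 to 5.56, 7.11 and 3.65 CPM (log2 fold change -3.11 ± 0.32, adjusted p = 0.00068). Cd300lf, an inhibitory receptor for phospholipids, fell from 186, 179.7 and 220.1 to 35.3, 40.9 and 34.9 CPM (log2 fold change -2.40 ± 0.22, adjusted p = 0.00063). Tyrobp (DAP12), the adaptor of several of these receptors, fell (log2 fold change -1.52 ± 0.34, adjusted p = 0.012), with LPS replicate 1 lowest at 77.0 CPM.

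Over all genes 17.6% were called lower and 15.2% higher. Of 24 scavenger and efferocytosis genes, which bind lipoproteins and dying cells, 15 were called lower and 2 higher (median log2 fold change -1.95). The rises, Olr1 and Tyro3, were not stable: 0 of the list were called higher without any 1 of the LPS libraries, and 1 without any 1 of the untreated ones or without octanal replicate 2 or 3. Cd36, the receptor for oxidised lipoproteins, had 1237, 896 and 776 CPM in the untreated libraries and 131, 224 and 324 CPM in the LPS libraries. Its groups were apart (log2 fold change -2.10 ± 0.32, adjusted p = 0.0026). Lrp1 fell from 1282, 765 and 699.6 to 114, 169 and 149.9 CPM (log2 fold change -2.67 ± 0.25, adjusted p = 0.00063). Mertk, a kinase receptor for apoptotic cells, fell from 60.8, 37.6 and 12.8 to 4.79, 2.85 and 6.06 CPM (log2 fold change -3.02 ± 0.56, adjusted p = 0.0055), with the widest spread among the untreated libraries. Apoe, a lipoprotein made by macrophages, fell as well (log2 fold change -2.21 ± 0.29, adjusted p = 0.0015). Macrophage markers as a whole were lower for 9 of 15, 0 being called higher, with sums of 3031 to 4395 CPM in untreated and 2018 to 2862 CPM in LPS libraries and none at 0, and their part in these falls was not tested. Adgre1 (F4/80), a defining macrophage marker, overlapped between the groups, at 149, 83.4 and 66.1 CPM in the untreated libraries and 107, 157 and 191 CPM in the LPS libraries (log2 fold change 0.61 ± 0.35, adjusted p = 0.2).

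Of the 7 genes of the phagocyte NADPH oxidase, which makes superoxide, 5 were called lower and 0 higher (2 lower without LPS replicate 1). Over all genes 17.6% were called lower and 15.2% higher. Ncf1, a cytosolic subunit, fell from 885, 612 and 1166 to 311, 386 and 304 CPM (log2 fold change -1.41 ± 0.24, adjusted p = 0.004). The catalytic subunit Cybb overlapped between the groups, with 1103, 317 and 513 CPM in the untreated libraries and 201, 299 and 389 CPM in the LPS libraries. It was not called (log2 fold change -1.12 ± 0.42, adjusted p = 0.069), but passed by DESeq2 (adjusted p = 0.019) and without untreated replicate 2 (adjusted p = 0.014). Sod2, the mitochondrial superoxide dismutase and a target of NF-kappaB, moved the other way. It had 227, 129.9 and 149 CPM in the untreated libraries and 373, 456 and 527 CPM in the LPS libraries and its groups did not overlap (log2 fold change 1.42 ± 0.26, adjusted p = 0.0055). Sod1, the cytosolic form, rose by less (log2 fold change 0.72 ± 0.11, adjusted p = 0.0027), and Mt1, a metallothionein, fell (log2 fold change -1.55 ± 0.33, adjusted p = 0.0093).

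Most transcription factors that set and maintain myeloid identity were lower. Of 19 tested, 14 were called lower and 0 higher, 11 stably, with a median log2 fold change of -0.91. Over all genes 17.6% were called lower and 15.2% higher. Spi1 (PU.1), which opens myeloid enhancers, had 398, 300.3 and 439 CPM in untreated replicates 1, 2 and 3 and 186, 210.3 and 224 CPM in LPS replicates 1, 2 and 3. Every LPS library was lower (log2 fold change -0.87 ± 0.17, adjusted p = 0.0073). Cebpa fell from 134, 114 and 69.3 to 37.4, 44.5 and 36.9 CPM (log2 fold change -1.42 ± 0.21, adjusted p = 0.0025). Cebpe, which directs granule formation in neutrophils, fell from 49.7, 19.8 and 34.9 to 1.26, 1.06 and 0.526 CPM (log2 fold change -5.19 ± 0.61, adjusted p = 0.001). Zeb2 (log2 fold change -0.91 ± 0.14, adjusted p = 0.0029) and Bhlhe40 (log2 fold change -1.36 ± 0.21, adjusted p = 0.0027) fell by less. Cebpb, the C/EBP factor linked to inflammatory genes, was not called (log2 fold change 0.03, adjusted p = 0.9). In the lists on lysosomes, Fc receptors, TREM and CD300 receptors, the NADPH oxidase and myeloid factors, the count of rises was also 0 by edgeR at an unadjusted p of 0.05, by DESeq2 and by limma-voom. The same held for falls among the GTPases and the T cell markers and for rises among the neutrophil and macrophage markers, while the NF-kappaB and mRNA decay lists each had 1 fall at the unadjusted p, 1 by DESeq2 and 0 by limma-voom.

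Of 26 genes of glycolysis and its regulation, 10 were called lower and 3 higher, beside 17.6% and 15.2% of all genes. The falls were 6 without untreated replicate 3 and 5 without LPS replicate 1 or LPS replicate 3, and the rises were 1 in each of these fits and without LPS replicate 2. On FPKM values 9 were lower and 8 higher. Slc2a3, a high-affinity glucose transporter, had 297, 221 and 368 CPM in the untreated libraries and 47.3, 46.2 and 45.0 CPM in the LPS libraries. The LPS libraries were nearly equal and far below the untreated ones (log2 fold change -2.68 ± 0.29, adjusted p = 0.00088). Hk3, a myeloid hexokinase, fell from 568, 363 and 528 to 90.2, 138 and 129 CPM (log2 fold change -2.03 ± 0.22, adjusted p = 0.00091), and Pfkfb4, a regulator of phosphofructokinase, fell from 115, 65.2 and 123 to 19.6, 16.6 and 18.6 CPM (log2 fold change -2.47 ± 0.27, adjusted p = 0.00095). Gpi1 (log2 fold change -0.84 ± 0.19, adjusted p = 0.013) and Pgam1 (log2 fold change -0.89 ± 0.19, adjusted p = 0.011), enzymes of the main path, fell by less. Pdk1, the kinase that shuts pyruvate out of the mitochondrion, rose (log2 fold change 0.91 ± 0.20, adjusted p = 0.012). Acod1, which makes itaconate, went from 283, 118 and 212 to 463, 384 and 382 CPM (log2 fold change 1.01 ± 0.28, adjusted p = 0.026). Its call was lost without untreated replicate 3 or any 1 LPS library, with adjusted p from 0.063 to 0.094. Nos2, the inducible nitric oxide synthase, was low in 5 libraries and at 14.0 CPM in LPS replicate 1 (log2 fold change 1.45 ± 0.69, adjusted p = 0.14), and its log2 fold change was -0.16 without that library.

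Of 27 genes of cell death and survival, 5 were called higher and 3 lower, beside 15.2% and 17.6% of all genes, with 7 and 6 without untreated replicate 2, 6 and 7 by DESeq2, and 3 higher without LPS replicate 1 or 2. Pim1, a survival kinase, rose from 129, 188 and 136 to 330.0, 292 and 285 CPM (log2 fold change 1.00 ± 0.15, adjusted p = 0.0024). Bid, which links death receptors to mitochondria, fell from 85.8, 52.2 and 77.8 to 23.3, 27.0 and 28.9 CPM (log2 fold change -1.45 ± 0.20, adjusted p = 0.0017). Bak1, which permeabilises the outer mitochondrial membrane, fell (log2 fold change -0.92 ± 0.13, adjusted p = 0.0022), as did Casp9 (log2 fold change -0.53 ± 0.12, adjusted p = 0.012).

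Adhesion genes moved in both directions. Of 23 tested, 6 were called higher and 8 lower (3 and 6 without LPS replicate 1), beside 15.2% and 17.6% of all genes. The beta2 integrin chains Itgam and Itgb2, which form Mac-1, fell. Itgam had 1855, 1497 and 3052 CPM in the untreated libraries and 415, 699 and 566 CPM in the LPS libraries (log2 fold change -1.93 ± 0.32, adjusted p = 0.0038). Itgb2 went from 1713, 1198 and 1816 to 435, 613 and 539 CPM (log2 fold change -1.57 ± 0.23, adjusted p = 0.0022). Their ligand Icam1, a target of NF-kappaB, had 77.0, 68.0 and 67.8 CPM in the untreated libraries and 156, 143 and 166 CPM in the LPS libraries. The spread in each group was small and the groups were apart (log2 fold change 1.13 ± 0.11, adjusted p = 0.00068). Itga4, the alpha chain of VLA-4, rose from 123, 248 and 197 to 428, 480.0 and 386 CPM (log2 fold change 1.19 ± 0.26, adjusted p = 0.01). Cd44, the receptor for hyaluronan, fell (log2 fold change -1.42 ± 0.17, adjusted p = 0.0012). Dll4, a Notch ligand, had 0.726, 1.28 and 1.70 CPM in the untreated libraries and 16.3, 7.30 and 9.63 CPM in the LPS libraries. It was near 0 before LPS and was among the 3 largest stable rises with a gene symbol (log2 fold change 3.17 ± 0.62, adjusted p = 0.007), while the receptor Notch2 fell (log2 fold change -0.76 ± 0.13, adjusted p = 0.0045).

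Other large stable rises were of mixed kind. Prg4 (lubricin), a secreted proteoglycan, rose from 1.21, 2.39 and 2.94 to 16.9, 7.39 and 12 CPM (log2 fold change 2.48 ± 0.39, adjusted p = 0.0031). Hspa1a, the inducible heat shock protein 70, had 3.52, 7.17 and 9.0 CPM in the untreated libraries and 57.7, 29.3 and 21.1 CPM in the LPS libraries. LPS replicate 1 was the highest (log2 fold change 2.46 ± 0.46, adjusted p = 0.0056). Skap1, an adaptor of T cell receptor signalling, rose from 8.10, 41.8 and 34.5 to 137, 150.1 and 124 CPM (log2 fold change 2.28 ± 0.51, adjusted p = 0.012), and Sh2d1a (SAP), an adaptor of T and NK cells, rose from 1.10, 6.22 and 3.97 to 17.3, 15.4 and 18.0 CPM (log2 fold change 2.17 ± 0.49, adjusted p = 0.012). Patj, a polarity scaffold, went from 9.36, 48.2 and 28.0 to 137, 98.3 and 156 CPM (log2 fold change 2.19 ± 0.54, adjusted p = 0.016), and Rundc3b from 1.80, 6.81 and 5.99 to 25.5, 16.2 and 23.5 CPM (log2 fold change 2.16 ± 0.51, adjusted p = 0.014). In these 4 genes untreated replicate 1 was lowest, as it was in the T cell marker sum. The order was not particular to T cell genes. All stable rises together took 4.037, 5.773 and 4.703% of the counts in untreated replicates 1, 2 and 3. Among the T cell markers, Tcf7 had 58.3, 539 and 327 CPM in untreated replicates 1, 2 and 3 and 1341, 1162 and 1066 CPM in LPS replicates 1, 2 and 3. Untreated replicate 1 was the lowest library and untreated replicate 2 the highest of the untreated ones (log2 fold change 1.95 ± 0.61, adjusted p = 0.039). The call was lost without any 1 library other than untreated replicates 1 and 2 (adjusted p from 0.053 to 0.1), and the log2 fold change was 2.58 without untreated replicate 2. The NK cell markers were called higher for 3 of 11 and 0 lower, beside 15.2% and 17.6% of all genes. The count of NK cell markers lower was also 0 at an unadjusted p of 0.05, by DESeq2 and by limma-voom. Their summed level was 8.20 to 29.9 CPM in untreated and 46.2 to 57.5 CPM in LPS libraries, and their calls numbered 5 without untreated replicate 2 and 1 without LPS replicate 1 or 2. The B cell markers summed to 108 to 363 CPM in untreated and 154 to 205 CPM in LPS libraries, which overlapped. Untreated replicate 3 alone was below the LPS libraries, against 342 and 363 CPM in the other untreated libraries, and without it 8 of 10 B cell markers were called lower, against 0 with it (2 by edgeR at an unadjusted p of 0.05, 2 by DESeq2 and 0 by limma-voom).

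Measured by the change in CPM, the largest gain was at an unannotated locus, NewGene_6980, from 1889, 4261 and 2903 to 16281, 7619.9 and 9474 CPM (log2 fold change 1.88 ± 0.39, adjusted p = 0.0086). LPS replicate 1 was the highest and the groups did not overlap. Rplp0, a ribosomal stalk protein, rose from 941, 1234 and 914 to 2038, 1767 and 1736 CPM (log2 fold change 0.84 ± 0.16, adjusted p = 0.0064). Other gains of this size were called but not stable. The mitochondrially encoded mt-Atp6, a subunit of ATP synthase, had 1425, 3087 and 1797 CPM in the untreated libraries and 3384, 7681 and 3800.1 CPM in the LPS libraries (log2 fold change 1.24 ± 0.40, adjusted p = 0.044), with LPS replicate 2 far above the rest, and its call was lost in 8 of the 9 fits that left out a library (adjusted p from 0.053 to 0.16), all except the one without untreated replicate 2. Eef2, a translation elongation factor (log2 fold change 0.60 ± 0.18, adjusted p = 0.032), lost its call without any 1 library other than untreated replicate 2 (adjusted p from 0.055 to 0.097). The RNA helicase Ddx5 (log2 fold change 0.57 ± 0.17, adjusted p = 0.034) lost it without any 1 library other than untreated replicate 2 or LPS replicate 2 (0.054 to 0.13), and Tpt1 (log2 fold change 0.67 ± 0.17, adjusted p = 0.02) without untreated replicate 1 or any 1 LPS library (0.054 to 0.081). The mitochondrial mt-Nd2 (log2 fold change 1.07 ± 0.33, adjusted p = 0.035) lost it without untreated replicate 1 or 3, LPS replicate 1 or 2 or octanal replicate 2 or 3 (0.055 to 0.12). Gimap4, a GTPase of lymphocytes (log2 fold change 2.18 ± 0.63, adjusted p = 0.029), lost its call without untreated replicate 3 or any 1 LPS library (adjusted p from 0.051 to 0.081), and its log2 fold change was 2.97 without untreated replicate 2. Mitochondrial transcripts as a whole took 2.20, 3.98 and 2.37% of the counts in untreated replicates 1, 2 and 3 and 4.12, 7.66 and 4.31% in the LPS replicates. Sqstm1 (p62), an autophagy receptor, went from 1372, 1847 and 1681 to 2424, 2835 and 3085 CPM (log2 fold change 0.77 ± 0.21, adjusted p = 0.025) and was lost without untreated replicate 1 or 3, any 1 LPS library or octanal replicate 3 (adjusted p from 0.053 to 0.1).

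The 12 deepest stable falls with a gene symbol included neutrophil granule genes. Ltf (lactoferrin), of the secondary granules, had 2636, 934 and 1823 CPM in untreated replicates 1, 2 and 3 and 10.3, 12 and 11.5 CPM in LPS replicates 1, 2 and 3. The LPS libraries were close to each other and far below the lowest untreated library, untreated replicate 2 (log2 fold change -7.32 ± 0.90, adjusted p = 0.0012). Ngp, another granule protein, fell from 4801, 2107 and 4752 to 44.8, 44.3 and 31.4 CPM (log2 fold change -6.60 ± 0.77, adjusted p = 0.001). Pglyrp1, a granule protein that binds peptidoglycan, fell from 174, 76.9 and 141 to 2.73, 3.35 and 1.25 CPM (log2 fold change -5.74 ± 0.79, adjusted p = 0.0018). S100a9, a subunit of calprotectin, had 7637, 5098 and 10414 CPM in the untreated libraries and 547, 694 and 504 CPM in the LPS libraries (log2 fold change -3.73 ± 0.42, adjusted p = 0.00096). Its partner S100a8 fell too (log2 fold change -2.48 ± 0.29, adjusted p = 0.001). Neither S100a9 nor S100a8 was among the 12 deepest stable falls, but Cxcr2 and Cebpe, given above, were (log2 fold changes -5.75 and -5.19). The others among the 12 were Ifitm6 (log2 fold change -6.40 ± 0.79, adjusted p = 0.0012), Rab44 (-6.22), Itgb2l (-6.06), Pi16 (-5.96), Retnlg (-5.38), Fcnb (ficolin B, a secreted lectin, -5.32) and Krt83 (-5.16), with log2 fold changes in parentheses. In each of these genes the 3 LPS libraries lay below all 3 untreated ones, which the rule for a stable call required.

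Among the largest losses of CPM, Lyz2, lysozyme, fell from 10176, 3589.7 and 6060.1 to 799, 1801 and 1698 CPM (log2 fold change -2.21 ± 0.45, adjusted p = 0.0085). Chil3 (Ym1), a chitinase-like protein, fell from 3747, 1846 and 3651 to 91.5, 96.0 and 76.5 CPM (log2 fold change -5.13 ± 0.46, adjusted p = 0.00062). Gpnmb, a membrane glycoprotein of lipid-laden macrophages, had 6119, 3334 and 4747 CPM in the untreated libraries and 405, 569 and 594 CPM in the LPS libraries (log2 fold change -3.18 ± 0.30, adjusted p = 0.00063). Lgals3 (galectin 3) fell from 2922, 2121 and 2059 to 339, 432 and 421 CPM (log2 fold change -2.57 ± 0.19, adjusted p = 0.00041). Mpeg1 (perforin-2), also abundant in macrophages, fell from 4963, 3707 and 6761 to 1517, 2949 and 2716 CPM (log2 fold change -1.10 ± 0.32, adjusted p = 0.031) and lost its call without untreated replicate 1 or 3, LPS replicate 1 or 3 or octanal replicate 2 (adjusted p from 0.05 to 0.098). Ly6g, the surface marker that defines neutrophils, was low in both groups, at 41.3, 57.0 and 7.33 CPM in the untreated libraries and 10.9, 28.4 and 21.6 CPM in the LPS libraries, and was not called (log2 fold change -0.80 ± 0.63, adjusted p = 0.36).

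The untreated libraries varied more among themselves than the LPS libraries did. Over genes, the SD of log2 CPM had a median of 0.31 in the untreated and 0.17 in the LPS group. For the genes with a stable fall, untreated replicate 2 lay nearest to the LPS libraries, as it did in the neutrophil and lysosome sums of 14111 and 20144 CPM, against 24483 and 32923 CPM in untreated replicate 1 and 27676 and 27370 CPM in untreated replicate 3. Leaving out each library in turn gave 2387 to 5658 called genes, fewest without LPS replicate 1 (763 higher and 1624 lower).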

How the data were processed

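TRIzol RNA was turned into mRNA libraries for Illumina sequencing, per the labels' protocols. The deposited count values are whole numbers for every gene in each library and were not normalized, per the file headers and the values themselves. The FPKM values, which the authors scaled by gene length and library size, stand in the same table, per the file headers. The submitters' processing notes name the genome build GRCm38. Aligner, counting tool and strand handling were not given in the sources used here. Reads of overlapping genes or of close copies may therefore be mixed. The table lists 26770 genes, among them 4735 unannotated loci called NewGene, and 10 lines without values were left out.

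Counts of the 9 libraries were fitted together with edgeR 4.0.16 (R 4.3.3), using TMM factors (0.923 to 1.07), filterByExpr and 1 mean per group, and the quasi-likelihood test compared LPS with untreated. A gene was called where its adjusted p (Benjamini-Hochberg) was below 0.05. CPM use TMM-scaled library totals, and each log2 fold change is given with its SE. Alternatives were DESeq2 1.42.0, limma 3.58.1 (voom, and limma-trend on log2 of FPKM + 1), other factors and filters, a replicate block and fits without each library. Replicates of the untreated and LPS groups differed beyond sampling noise (chi-square over degrees of freedom 45.6 to 152), so none repeats another.

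The gene lists and named genes were chosen with earlier results of these data known, so list counts are descriptions. The rule for names took the 12 largest stable rises and falls, the 12 largest CPM gains and losses among called genes without overlap (unannotated loci are named only for the largest), up to 5 members per list and direction, key members by role, and both genes of the series title. Some members of these lists are covered by counts alone. Trac, Trbc1, Trbc2, Ighm, Ighd, Il36g, Mb21d1 and Ifi30 did not match by symbol and have no value here. Figures were drawn with matplotlib 3.10.9.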

Additional observations from a re-analysis of the deposited data

How the results depend on the processing

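Against 5072 called genes, leaving out 1 library at a time gave 2387 (without LPS replicate 1) to 5658 (without untreated replicate 2). Over the same fits 763 to 2618 genes were higher, 1624 to 3040 lower, and 1520 to 3176 called with a change of 2-fold or more, against 2465 with all libraries. The 2-fold count was 1520 with a filter at 10 CPM, which tests fewer genes, and 1581 by limma-trend on log2 FPKM. With only the 6 libraries in the fit, 3916 genes were called, 1540 of them higher. The cause of the other differences was not tested. The share of calls that were higher was 46.4%, and 59.9% on FPKM values, whose median fold change lies 0.107 (log2) above that of the count fit. It was 32% without LPS replicate 1, 39.0% without LPS replicate 2 and 36.5% without LPS replicate 3.

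Same-numbered untreated and LPS libraries did not deviate together from their group means (correlations 0.019, -0.04 and 0.016). Whether the numbers pair samples is not in the labels, and correlations from so few libraries cannot decide it. A replicate block gave 1815 higher and 2442 lower calls. Of the single genes, 4 uncalled ones changed sign when a library was left out: Stat3 ranged from -0.049 to 0.276 (log2 fold change), Nr4a1 from -0.164 to 0.53, Nos2 from -0.157 to 1.82 and Cebpb from -0.075 to 0.049. No named gene with a stable call lost it under any alternative run. The counts of list members under each alternative fit were added after seeing the data. Depth limits the genes of a few counts per library, such as Ifnb1, where no difference was detectable. Searching only the bases before each start, the NF-kappaB motif was found for 1.91% of genes with a window. The interferon-stimulated response element was found for 3.39%. Over whole windows the shares were 2.15% and 3.89%.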

Other observations

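Of 16 MHC class II genes tested, 1 was called higher and 2 lower, beside 15.2% and 17.6% of all genes. The count of rises was 0 in 8 of the 9 fits that left out a library and 3 without untreated replicate 2. H2-Ab1, a class II chain, had 67.6, 64.1 and 38.7 CPM in the untreated libraries and 76.3, 79.2 and 72.4 CPM in the LPS libraries and was not called (log2 fold change 0.42 ± 0.22, adjusted p = 0.17). Ctss and March1, the ubiquitin ligase that removes class II molecules from the surface, were the 2 falls, and March1 went from 38.4, 26.0 and 28.0 to 11.3, 11.4 and 15.2 CPM (log2 fold change -1.29 ± 0.22, adjusted p = 0.0043). The costimulatory ligand Cd86 had 40.3, 49.6 and 25.5 CPM in the untreated libraries and 43.5, 41.9 and 52.7 CPM in the LPS libraries (log2 fold change 0.26 ± 0.29, adjusted p = 0.52), and Cd80 (log2 fold change 0.27 ± 0.25, adjusted p = 0.44) and Cd274, PD-L1 (log2 fold change 0.26 ± 0.17, adjusted p = 0.26), were not called either. Cd40 was above the untreated level in all LPS libraries, from 18.0, 15.3 and 12.4 to 30.7, 21.4 and 24.9 CPM, and missed the threshold (log2 fold change 0.75 ± 0.26, adjusted p = 0.055), but passed by DESeq2 (adjusted p = 0.023) and with a replicate block (0.021). Inhibitory receptors of myeloid cells were among the falls. Sirpa, which reads the CD47 signal, went from 1241, 836 and 1194 to 347, 559.8 and 555 CPM (log2 fold change -1.16 ± 0.24, adjusted p = 0.0092), and Cd200r1 went from 135, 80.9 and 106 to 26.5, 27.8 and 25.2 CPM (log2 fold change -2.02 ± 0.18, adjusted p = 0.00062).

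The cholesterol efflux transporter Abcg1 fell (log2 fold change -1.02 ± 0.21, adjusted p = 0.0092), while Mylip, which degrades the LDL receptor and like Abcg1 is a target of the LXR receptors, rose (log2 fold change 0.77 ± 0.12, adjusted p = 0.0025). Hp (haptoglobin), which binds free haemoglobin, fell from 565, 198 and 329 to 60.0, 45.8 and 52.5 CPM (log2 fold change -2.79 ± 0.34, adjusted p = 0.0012). Lcn2 (lipocalin 2), which binds bacterial siderophores, fell from 1637, 699 and 1348 to 400.0, 379 and 402 CPM (log2 fold change -1.64 ± 0.30, adjusted p = 0.0054). Called genes without a count in any LPS library numbered 17. They include Epx, the eosinophil peroxidase, with 148 counts over the untreated libraries (at least 55.0-fold lower, with 3 counts over a group as the floor), and the protease Prss57, with 162 counts (at least 60.2-fold lower). Another 14 called genes had no count in any untreated library, among them Krt16, a keratin, with 188 counts over the LPS libraries (at least 56.2-fold higher). Epx, Prss57 and Krt16 were chosen after their values were seen, and these limits cover counting error only.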
